A study of Mus musculus with 8 samples.

Results

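Messenger RNA of 5 genes of peripheral nerve was followed in the ventral prostate of hSKP2-KI and wild-type (WT) mice. Mbp, S100b and Sox10 are genes of Schwann cells, and Vip and Npy encode neuropeptides of autonomic neurons. These 5 were chosen by name as glial and neuronal transcripts among the 36333 genes of the table, and 3 of them (Mbp, S100b and Sox10) passed the filter on low values, which asked that 4 or more of the 8 mice reach 1 TPM (the unit of the table, a transcript share corrected for length). Of the 36333 genes, 13080 passed. Vip and Npy did not, and they were compared by single-gene exact tests.

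The samples were ventral lobes of 8 FVB/N mice at 12 months of age, 4 hSKP2-KI and 4 WT, with 1 library of poly-T-selected RNA per mouse, and the labels name no treatment. In the hSKP2-KI mice, the coding sequence of human SKP2, an F-box protein of an SCF ubiquitin ligase, had been placed behind a P2A peptide in exon 1 of the endogenous X-linked probasin gene (Pbsn), so that the androgen-driven promoter of a luminal secretory gene drives it. The mice were male offspring of heterozygous knock-in females and WT males, and the founder line of the sequenced mice is not given in the sources used here. As a check of the labels, the mouse Skp2 row stood at 48.1 ± 10.1 TPM in hSKP2-KI and 1.75 ± 0.528 in WT (SD, n = 4 each), and Pbsn at 114.5 ± 39.6 and 5984 ± 2447. The tissue label fitted its secretory genes, since Sbp, Spink1 and Sbpl of the ventral lobe together held 43.1% of all TPM in WT and 32.9% in hSKP2-KI on average. All 8 columns sum to the same total, so the number of reads behind each library cannot be read from the table, the study's methods give a nominal depth alone, and no counting interval was derived. The 5 protein genes looked up of the mitochondrial genome were listed at 0 in all 8 mice, so a 0 in this table does not show that a transcript was absent.

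The prostate is supplied by autonomic nerves whose axons run through the stroma around the glands. Schwann cells accompany these axons, wrapping large ones in myelin and holding bundles of thin ones without it, and SOX10 is the transcription factor that sets and keeps their identity. The messenger RNA of a neuron lies mainly in its cell body, and the cell bodies that serve the prostate sit in pelvic ganglia near the gland, where noradrenergic neurons commonly carry NPY and cholinergic neurons commonly carry VIP. In whole tissue, fewer cells of a type and less RNA per cell cannot be told apart.

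The 2 peptide genes had the widest spread between mice, and the DNA just before their annotated starts is shown for that reason, from RefSeq on GRCm38.p6. Vip, which encodes vasoactive intestinal peptide, lies at chr10:5639193-5647617 on the plus strand. The 225 bases at chr10:5638968-5639192, which end 26 bases before the start used in the RefSeq promoter table, carry in capitals the letters TGACG, the core of the cAMP response element, beginning 79 bases before that start. Npy, which encodes neuropeptide Y, lies at chr6:49822710-49829507 on the plus strand. The 250 bases at chr6:49822460-49822709 carry in capitals the GC box GGGCGG, beginning 95 bases before the start.
Vip: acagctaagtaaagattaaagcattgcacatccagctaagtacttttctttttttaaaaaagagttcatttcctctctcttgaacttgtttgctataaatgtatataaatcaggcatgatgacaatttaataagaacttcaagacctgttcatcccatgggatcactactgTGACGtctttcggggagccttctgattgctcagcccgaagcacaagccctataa
Npy: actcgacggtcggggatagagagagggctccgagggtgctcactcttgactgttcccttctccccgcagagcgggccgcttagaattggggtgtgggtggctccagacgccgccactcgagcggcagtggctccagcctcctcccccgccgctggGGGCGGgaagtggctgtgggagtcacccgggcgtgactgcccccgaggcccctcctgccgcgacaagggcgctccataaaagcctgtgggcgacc
Searched on both strands, TGACG was present in 17.8% and GGGCGG in 32.7% of 32851 RefSeq promoter windows of the 250 bases before the start, so neither motif is rare, and a match of letters is no evidence of binding. The 2 windows differ in base composition, with 37.8% G and C before Vip and 69.2% before Npy, against a median of 52.4% and a range of 34.8% to 73.6% from the 5th to the 95th percentile of all windows. The SOX core ACAAAG was in 16.5% of windows and in neither of these, nor in that of S100b (chr10:76253836-76261319). Sox10 lies at chr15:79154913-79164490.

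On the TPM scale, which is per transcript length, Mbp was the most abundant of the 5 genes in every mouse. In WT, Sox10 followed and then S100b, and the 4 WT values of these 2 genes did not overlap, while Npy and Vip were at or near 0 and overlapped. In hSKP2-KI, the lowest Mbp value (14.8 TPM) was above the highest of any other of the 5, and the values of S100b, Sox10, Npy and Vip overlapped. Of the 3 genes that could be tested across all genes, S100b was called higher in hSKP2-KI and Mbp and Sox10 were not called (limma, Benjamini-Hochberg adjusted p under 0.05). By the same test 32.7% of all 13080 tested genes were called higher and 1.23% lower, and the log2 fold changes of the tested genes had a median of 0.23, so a change of that size is where the middle gene lies.

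**Figure D1:**
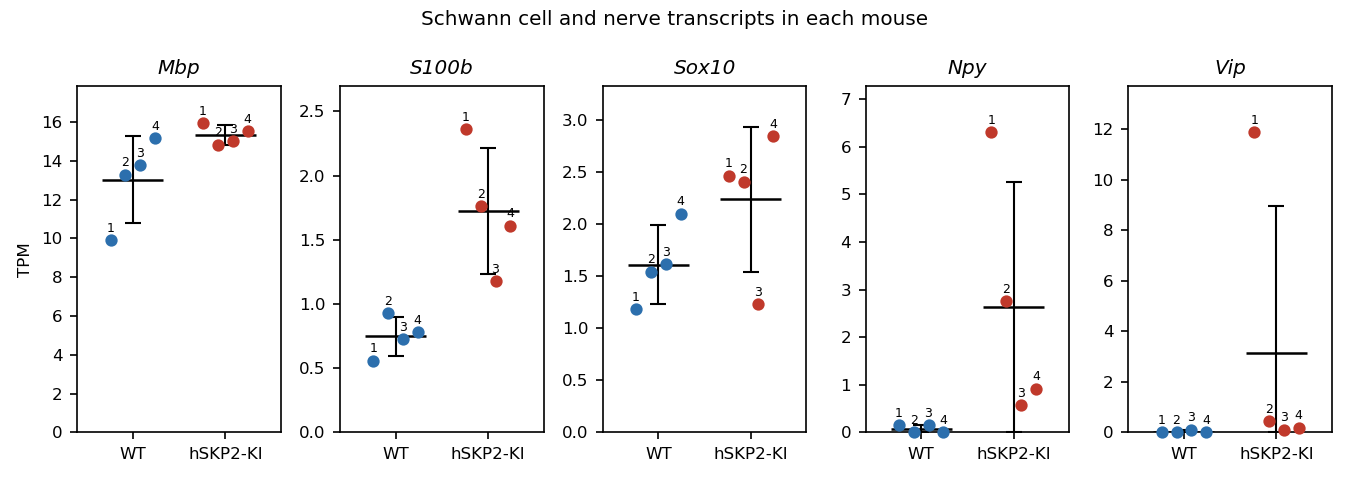
Level in TPM (y axis, from 0) of the 5 genes in each of the 4 WT (blue) and 4 hSKP2-KI (red) mice, with the replicate number above each point, a line at the mean and a bar of 1 SD (cut at 0 where the SD is larger than the mean). S100b and Npy of hSKP2-KI lie above all WT values, Mbp and Sox10 overlap, and hSKP2-KI replicate 1 stands alone for Vip at 11.9 TPM.

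S100b, a calcium-binding protein abundant in Schwann cells and other glia, was higher in hSKP2-KI. In hSKP2-KI replicates 1 to 4 it stood at 2.36, 1.76, 1.18 and 1.61 TPM, and in WT replicates 1 to 4 at 0.559, 0.931, 0.724 and 0.779 TPM. Every hSKP2-KI mouse was above every WT mouse, a separation that 34% of all tested genes showed. The log2 fold change was 0.63 ± 0.15 (SE), with an adjusted p of 0.0126 by limma, and a two-sided exact permutation test of this gene alone gave p = 0.0286, the smallest that 4 against 4 samples allow. S100b passed the filter through the hSKP2-KI mice alone, as all WT values were under 1 TPM. With no filter on low values, where 13.7% of genes were called higher, its adjusted p was 0.0265 by limma. After median-ratio scaling, which sets the typical gene equal between mice and under which 6.92% of genes were called higher and 4.25% lower, the log2 fold change was 0.49 and the adjusted p 0.0571 by limma, so the call did not hold.

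S100b is also known from adipocytes and melanocytes. The summed TPM of 8 adipocyte genes ranged from 185 to 1105 in hSKP2-KI and from 147 to 721 in WT, with 0 of 8 called, and among hSKP2-KI mice replicate 1 had the most S100b and the lowest adipocyte sum. Of the melanocyte genes, Tyr and Mlana were listed at 0 in all 8 mice and Dct in all but WT replicate 2, at 0.0797 TPM, and Tyrp1 was at most 0.0353 TPM. The other 2 genes of that list were found in every mouse, Mitf at 2.71 to 4.79 TPM and Pmel at 2.06 to 3.27 TPM, and neither was called (adjusted p = 0.594 and 0.612 by limma). All 6 summed to 6.13 to 7.33 TPM in hSKP2-KI and 4.78 to 7.20 TPM in WT. Of 8 fibroblast genes, 7 were called higher beside 32.7% of all tested genes, 3 with no filter beside 13.7%, and 2 after median-ratio scaling (Dcn and Lum) beside 6.92%, and their sum ranged from 796 to 1404 TPM in hSKP2-KI and from 437 to 637 in WT. The part of adipocytes, of pigment cells and of the stromal share in the S100b difference was not tested.

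Mbp encodes myelin basic protein, which holds the inner faces of the myelin membrane together, and its gene also gives golli transcripts outside myelin that a gene total does not separate. Its level was 15.9, 14.8, 15.0 and 15.5 TPM in hSKP2-KI replicates 1 to 4 and 9.89, 13.3, 13.8 and 15.2 TPM in WT replicates 1 to 4. The hSKP2-KI mice were tightly grouped, WT replicate 1 was the lowest, and the groups overlapped. The log2 fold change of 0.23 ± 0.12 (SE; adjusted p = 0.136 by limma) was that of the median tested gene. After median-ratio scaling it was -0.018 (adjusted p = 0.931 by limma), so no direction can be given for Mbp.

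Sox10, the transcription factor of Schwann cell identity, stood at 2.46, 2.41, 1.23 and 2.85 TPM in hSKP2-KI replicates 1 to 4 and at 1.18, 1.54, 1.62 and 2.10 TPM in WT replicates 1 to 4. The other hSKP2-KI mice were above all WT mice, while replicate 3 was near the lowest WT value. The log2 fold change was 0.29 ± 0.18 (SE; adjusted p = 0.211 by limma). After median-ratio scaling it was 0.12 (adjusted p = 0.699 by limma). On the TPM as deposited without hSKP2-KI replicate 3, it was 0.46 with an adjusted p of 0.0459 by limma. In that setting 3492 of 13080 tested genes were called higher. On the TPM as deposited, this 1 mouse thus decided whether Sox10 was called. S100b was likewise lowest among hSKP2-KI mice in replicate 3, at 1.18 TPM. Over the 8 mice, after the mean of each genotype was subtracted, the correlation of S100b with Sox10 on the log2 scale was r = 0.66 and that of Mbp with Sox10 was r = 0.54, given as a description of 8 libraries that share 1 scaling.

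Npy, a peptide of noradrenergic and some cholinergic pelvic neurons that constricts vessels and restrains transmitter release, was found in every hSKP2-KI mouse. It stood at 6.30, 2.75, 0.576 and 0.918 TPM in hSKP2-KI replicates 1 to 4 and at 0.149, 0, 0.152 and 0 TPM in WT replicates 1 to 4. The groups did not overlap, a separation shown by 6.06% of the 10746 genes below the filter with a TPM above 0. The difference in mean log2(TPM + 1) was 1.49, with p = 0.0286 by a two-sided exact permutation test, the smallest possible here. Without hSKP2-KI replicate 1 the difference was 1.07, the groups still did not overlap, and the exact permutation p was 0.0571, the smallest that 3 against 4 mice allow with this test. When all genes with any signal were fitted together, the adjusted p of Npy was 0.0504 by limma, just past the threshold.

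Vip, a peptide that relaxes smooth muscle and drives secretion, was high in a single mouse. It stood at 11.9, 0.438, 0.105 and 0.191 TPM in hSKP2-KI replicates 1 to 4, and at 0, 0, 0.111 and 0 TPM in WT replicates 1 to 4. Replicate 1 was 27.1 times the next hSKP2-KI mouse, and WT replicate 3 lay slightly above hSKP2-KI replicate 3, so that the groups overlapped. The difference in mean log2(TPM + 1) was 1.11, with p = 0.0571 by a two-sided exact permutation test. Without hSKP2-KI replicate 1 the difference was 0.27, so its size rested on that mouse. Vip and Npy were both highest in hSKP2-KI replicate 1 and second in replicate 2.

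The hSKP2-KI replicate 1 library stood apart for neuronal genes in general. Of 20 neuron genes it had the highest value for 16, and for 5 of 5 cholinergic genes. In the other nerve lists it led fewer of the genes above 0. These were 1 of 12 Schwann lineage regulators, 4 of 17 myelin and 3 of 16 non-myelinating Schwann and satellite glia genes. They were 3 of 7 noradrenergic, 4 of 10 other neuropeptide, 3 of 7 processing, 0 of 8 receptor and 3 of 17 trophic genes. The share over all genes was not counted. Tubb3, the neuronal tubulin, was at 8.95 TPM there and at most 0.735 TPM in the other 7 mice. Chrna3, a subunit of the ganglionic nicotinic receptor, was at 1.28 TPM against at most 0.104 TPM, and Chat, the enzyme that makes acetylcholine, was at 0.317 TPM there and listed at 0 in the other 7. Genes of at least 1 TPM and at least 4 times the next mouse numbered 19 in this library. Of these, 6 were in the nerve lists used here or among the 5 genes (Snap25, Tubb3, Chrna3, Vip, Cartpt and Nefl). The lists do not hold every neuronal gene, so 6 is not a count of all neuronal genes among the 19. In the other 7 libraries genes so far above the next mouse numbered 0 to 21, with none of the nerve lists or the 5 among them.

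**Figure D2:**
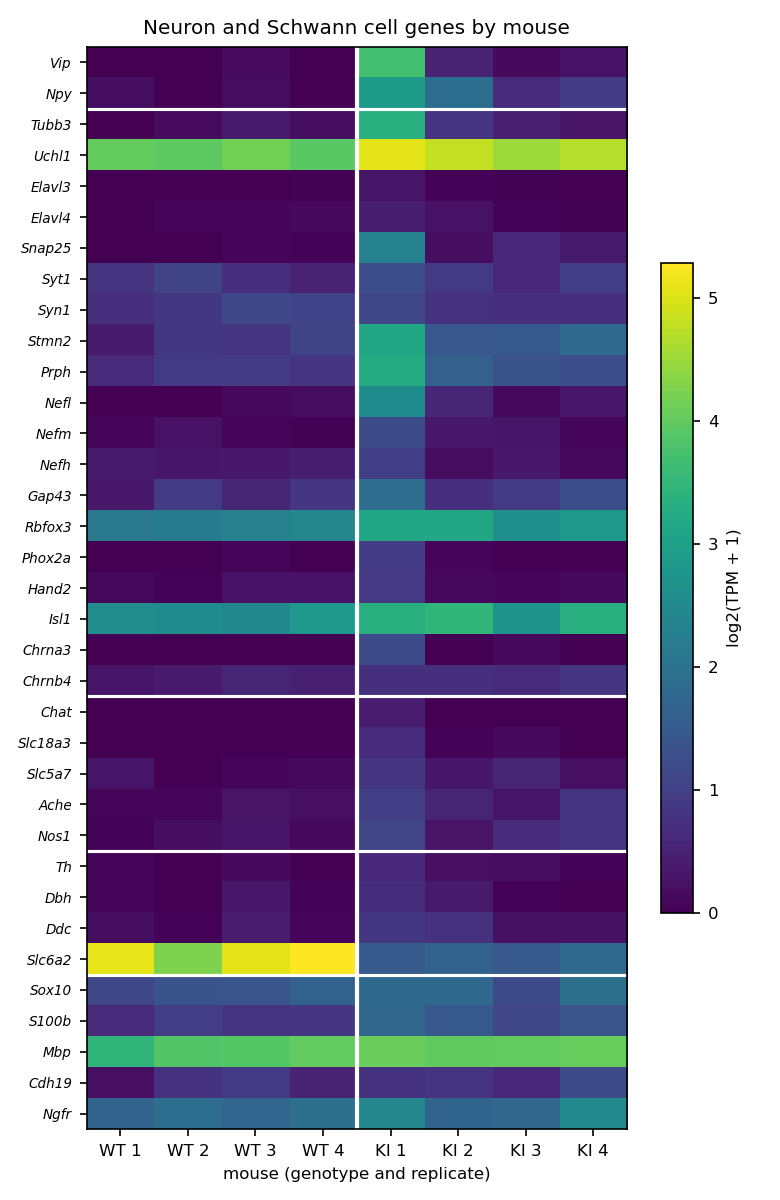
Colour gives log2(TPM + 1) of 35 genes (rows) in the 4 WT and 4 hSKP2-KI mice (columns), with white lines between the 2 peptides, 19 neuron genes, 5 cholinergic genes, 4 noradrenergic genes and 5 Schwann cell genes. The column of KI 1 is brighter than the others for Vip, Npy, Tubb3, Snap25 and Nefl, while Slc6a2 is bright in WT alone.

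The same library also differed in genes of no nerve list. Tgm4, the prostate transglutaminase known as abundant outside the ventral lobe, stood at 77.5 TPM in hSKP2-KI replicate 1. In the other hSKP2-KI mice it was at 4.99 to 6.74 TPM, and in WT at 1.06 to 2.16 TPM. 9530053A07Rik stood at 104.7 TPM in replicate 1, 3.62 to 5.41 TPM in the other hSKP2-KI mice and 0.0651 to 2.05 TPM in WT. Both were also called higher in hSKP2-KI (log2 fold changes 2.23 and 2.52, adjusted p = 0.028 and 0.0402 by limma), beside 32.7% of all tested genes. Whether neighbouring tissue in the dissected piece had a part in the Vip and Npy values was not tested. Seminal vesicle genes summed to at most 0.656 TPM in any mouse. The 6 neuroendocrine genes summed to 2.44 to 6.14 TPM in hSKP2-KI and to 1.49 to 2.22 TPM in WT, highest in hSKP2-KI replicate 1. Syp, a vesicle protein of neurons and neuroendocrine cells and the 1 tested gene of that list, was at 1.71 to 3.23 TPM in hSKP2-KI and 0.935 to 1.58 TPM in WT and was called higher (log2 fold change 0.62, adjusted p = 0.0163 by limma, and 0.0827 after median-ratio scaling). Chga, a granule protein of the same cells, was at 0.957 ± 0.487 TPM in hSKP2-KI and 0.329 ± 0.143 TPM in WT (SD, n = 4 each), while Insm1 and Nkx2-2 were at most 0.0902 TPM in any mouse. The part of neuroendocrine cells in the Vip and Npy values was not tested.

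The genes most like each of the 5 were found by Pearson's r over the 8 mice on the log2 scale after the genotype means were subtracted, with no test. Vip was most like Prph, a neurofilament protein of peripheral neurons (r = 0.987), then Tgm4 (0.980) and Cxcl15 (0.965). Vip, Prph and Tgm4 were each far higher in hSKP2-KI replicate 1 than in any other mouse, so their r values lean on that mouse. Npy was most like Nudt19 (0.968), Trim17 and Rrp9, and its r with Vip was 0.889. S100b was most like Itm2a (0.990), Ccdc64 and Plppr2, Sox10 most like Tpm2, a tropomyosin of contractile cells (0.979), Gm3417 and Nelfcd, and Mbp most like Hemk1 (0.983), Gtf2h2 and Casc3. No Schwann cell gene was among the 9 genes named for Mbp, S100b and Sox10. With only 3 of 13080 genes kept for each over 8 mice, that absence says nothing of a shared source.

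Around these 5 genes, 10 lists of nerve genes with 122 members were read from the same fit. Of the 122, 52 passed the filter, and of these 25 were called higher, 1 lower and 26 were not called, which is 48.1% higher beside 32.7% of all tested genes, and 1 lower beside 1.23%, with a median log2 fold change of 0.45 against 0.23 over all tested genes. With no filter 23 of 119 were called higher, 19.3% beside 13.7%. After median-ratio scaling 10 were called higher and 3 lower, beside 6.92% and 4.25% of all tested genes, with a median of 0.27 against -0.0071. Without hSKP2-KI replicate 1, 26 were called higher beside 27.6% of all tested genes, and without it and with median-ratio scaling 7 of 52 were, 13.5% beside 5.54%.

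**Figure D3:**
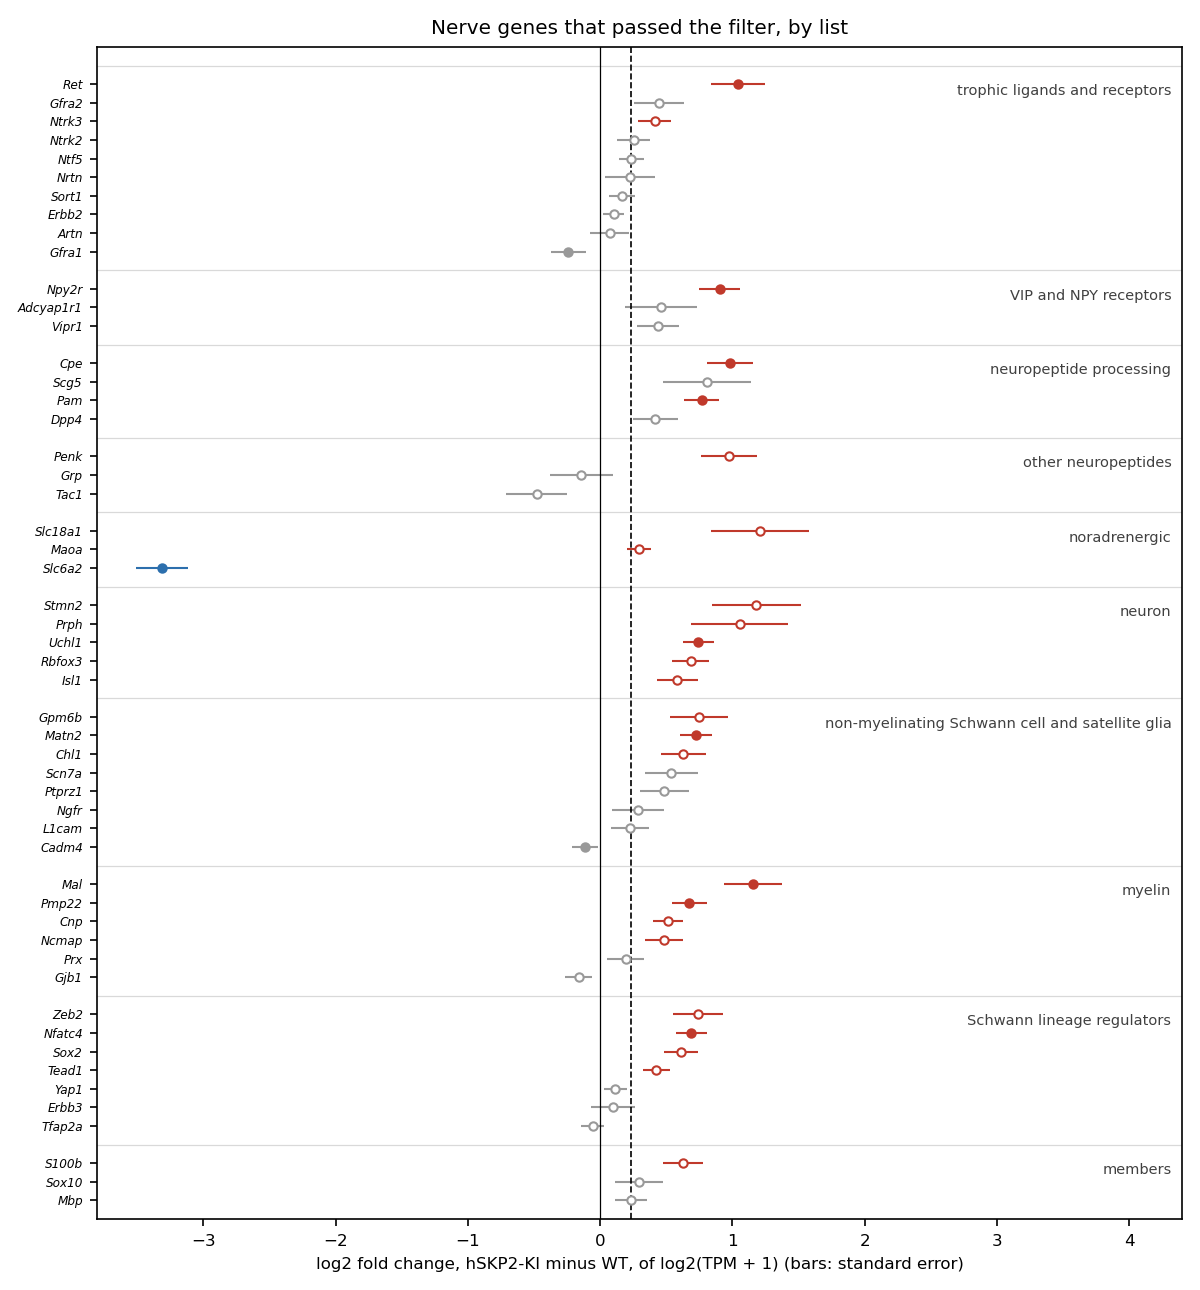
Log2 fold change of TPM + 1, hSKP2-KI minus WT (x axis, bars of 1 SE), of 49 of the 52 tested nerve genes and of S100b, Sox10 and Mbp, by list. Red marks genes called higher and blue lower in the TPM as deposited, grey those not called, and a filled point one called after median-ratio scaling (Gfra1 and Cadm4, filled grey, were then called lower), and the dashed line is the median of all tested genes, 0.23.

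Among regulators of the Schwann lineage, 4 of 7 tested genes were called higher (Sox2, Zeb2, Tead1 and Nfatc4), 57.1% beside 32.7% of all tested genes, and 4 of 12 with no filter, 33.3% beside 13.7%. Of the 4, Nfatc4 alone held after median-ratio scaling. Nfatc4, a calcineurin-dependent factor that works with SOX10 on myelin genes, was at 12.1, 14.6, 10.4 and 11.5 TPM in hSKP2-KI and 6.24, 7.20, 7.16 and 7.92 TPM in WT (log2 fold change 0.69 ± 0.12 SE, adjusted p = 0.00311 by limma), and with that scaling and without hSKP2-KI replicate 1 its adjusted p was 0.0508 by limma. With that scaling and without hSKP2-KI replicate 1, Zeb2 was called higher by limma. It was 1 of the 7 regulators tested, 14.3% beside 5.54% of all tested genes. Most of these regulators are also made by epithelium or fibroblasts. Erbb3, the neuregulin receptor, was high in both genotypes at 17.3 to 30.4 TPM (log2 fold change 0.10, adjusted p = 0.644 by limma). Egr2, the switch to myelination, was below the filter at 0.153 to 0.770 TPM.

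Among 18 myelin genes, 4 of 8 tested were called higher (Mal, Pmp22, Cnp and Ncmap), 50% beside 32.7%, and 4 of 17 with no filter, 23.5% beside 13.7%. The 2 that held after median-ratio scaling were Mal, a raft protein, with a log2 fold change of 1.16 ± 0.22 (SE; adjusted p = 0.00455 by limma), and Pmp22, with 0.67 ± 0.13 (SE; adjusted p = 0.0053 by limma), both of which epithelial cells also make. With that scaling and without hSKP2-KI replicate 1, Pmp22 was not called (adjusted p = 0.0518 by limma). The call of Ncmap was lost on leaving out WT replicate 1 or 2 or hSKP2-KI replicate 1, 2 or 4 (adjusted p 0.0513 to 0.0636 by limma).

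Genes of non-myelinating Schwann cells and satellite glia gave 3 calls higher among 8 tested (Gpm6b, Matn2 and Chl1), 37.5% beside 32.7% of all tested genes, and 2 of 16 with no filter, 12.5% beside 13.7%. Of the 3, Matn2 held after median-ratio scaling and Gpm6b was lost without WT replicate 1 (adjusted p = 0.0682 by limma). The named marker Cdh19 of Schwann cells and their precursors was below the filter, at 0.535 to 1.36 TPM in hSKP2-KI and 0.163 to 0.863 TPM in WT. Ngfr, the p75 neurotrophin receptor, was at 2.26 to 4.73 TPM and 2.20 to 2.83 TPM (log2 fold change 0.29, adjusted p = 0.244 by limma).

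The neuron genes were mostly too low to test, with 15 of 20 below the filter. The 5 tested were called higher (Stmn2, Prph, Uchl1, Rbfox3 and Isl1) beside 32.7% of all tested genes, and Prph had passed the filter through hSKP2-KI alone. With no filter 3 of the 20 were called higher (Uchl1, Rbfox3 and Chrnb4), 15% beside 13.7%, and with median-ratio scaling and without hSKP2-KI replicate 1 none of the 5 was called by limma. Uchl1, a deubiquitinase abundant in neurons, was the one that held after median-ratio scaling of all 8 mice (adjusted p = 0.0438 by limma, and 0.0739 without hSKP2-KI replicate 1), at 32.5, 26.8, 21.7 and 24.9 TPM in hSKP2-KI and 15.4, 14.7, 16.9 and 14.2 TPM in WT (log2 fold change 0.74 ± 0.12 SE, adjusted p = 0.00234 by limma). Stmn2, a growth-cone protein, was at 7.91, 1.69, 1.75 and 2.50 TPM in hSKP2-KI and 0.310 to 1.13 TPM in WT, and its log2 fold change of 1.18 (adjusted p = 0.0233 by limma) was 0.78 without hSKP2-KI replicate 1, still called, and missed the threshold without WT replicate 1 (adjusted p = 0.068 by limma). Prph was at 8.51, 2.08, 1.56 and 1.36 TPM in hSKP2-KI and 0.540 to 0.915 TPM in WT, and its log2 fold change of 1.06 (adjusted p = 0.0458 by limma) was 0.59 without hSKP2-KI replicate 1, still called. With no filter it was not called (adjusted p = 0.112 by limma), nor with the robust fit (0.0732). Its call was lost on leaving out any 1 WT mouse or hSKP2-KI replicate 2 (adjusted p 0.0625 to 0.109 by limma). Summed over the 20 genes, the level was 95.7, 53.5, 40.1 and 49.0 TPM in hSKP2-KI and 26.9 to 30.9 TPM in WT. The 5 cholinergic genes, none of which passed the filter, summed to 0.970 to 3.83 TPM in hSKP2-KI and 0.221 to 0.495 TPM in WT. With no filter 2 of these 5 were called higher by limma, 40% beside 13.7%.

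**Figure D4:**
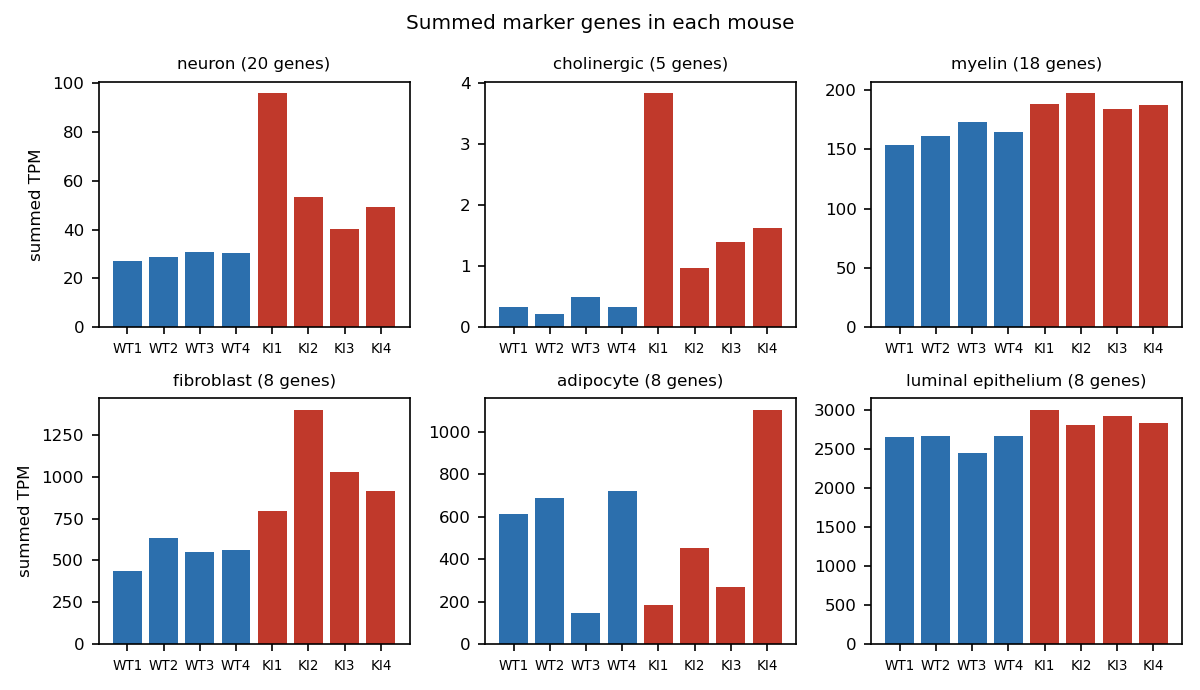
Summed TPM (y axes, each from 0 and on its own scale) of 6 gene lists in each WT (blue) and hSKP2-KI (red) mouse. The neuron, cholinergic, myelin, fibroblast and luminal sums of every hSKP2-KI mouse lie above those of all WT mice, hSKP2-KI replicate 1 leads the neuron and cholinergic sums, and the adipocyte sums of the genotypes overlap. Among single tested genes, 34% showed such a separation. The largest part of the myelin sum is Gjb1, at a mean of 100 TPM in hSKP2-KI and 112 TPM in WT and not called (adjusted p = 0.225 by limma).

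Of the noradrenergic genes, Slc6a2, the noradrenaline transporter, fell from 32.7, 18.0, 32.5 and 37.8 TPM in WT to 1.83, 2.09, 1.78 and 2.49 TPM in hSKP2-KI (log2 fold change -3.31 ± 0.20 SE, adjusted p = 4.87e-06 by limma), the 1 nerve-list gene called lower. The enzymes that make noradrenaline did not share its WT level, as Th was at most 0.0978 TPM and Dbh at most 0.264 TPM in WT. In hSKP2-KI, Th reached 0.507 TPM and Dbh 0.625 TPM, both in replicate 1. Slc18a1, a vesicular amine transporter, and Maoa were called higher (log2 fold changes 1.21 and 0.29, adjusted p = 0.0299 and 0.0333 by limma), and neither held after median-ratio scaling. These were 2 of the 3 noradrenergic genes tested, 66.7% beside 32.7% of all tested genes. With no filter 1 of 7 was called higher, 14.3% beside 13.7%. Slc18a1 was not called on leaving out WT replicate 3 or 4 or hSKP2-KI replicate 3 or 4 (adjusted p 0.0652 to 0.0793 by limma), nor Maoa on leaving out any 1 mouse other than hSKP2-KI replicate 4 (0.052 to 0.0918).

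On the side of the peptides' handling, Cpe and Pam, enzymes that trim and amidate neuropeptides and are made by many secretory cells, were called higher and held after median-ratio scaling (log2 fold changes 0.98 and 0.77, adjusted p = 0.00373 and 0.00362 by limma), though Pam was lost when hSKP2-KI replicate 1 was also left out (adjusted p = 0.082 by limma). These were 2 of the 4 processing genes tested, 50% beside 32.7% of all tested genes, and 2 of 7 with no filter, 28.6% beside 13.7%. Of 3 other neuropeptide genes tested, with a median log2 fold change of -0.14, 1 was called higher, 33.3% beside 32.7%. With no filter 1 of 10 was, 10% beside 13.7%. Penk, the enkephalin precursor, was at 80.9 to 189 TPM in hSKP2-KI and 50.4 to 73.5 TPM in WT (0.98, adjusted p = 0.00826 by limma), far above Vip and Npy in every mouse, and its call did not hold after that scaling (adjusted p = 0.0538). It was lowest among hSKP2-KI mice in replicate 1, the mouse with the most Vip and Npy. With that scaling and without hSKP2-KI replicate 1, Penk was called higher by limma. It was 1 of the 3 tested, 33.3% beside 5.54% of all tested genes. Tac1, the substance P precursor, was at 15.2 ± 3.17 TPM in hSKP2-KI and 22.2 ± 6.87 TPM in WT (SD, n = 4 each; log2 fold change -0.48, adjusted p = 0.12 by limma), and without WT replicate 3, its lowest WT mouse, it was called lower (-0.74, adjusted p = 0.0103 by limma). Grp, the gastrin-releasing peptide precursor, was not called (-0.14, adjusted p = 0.641 by limma).

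Of 8 receptor genes of the VIP and NPY families, 3 passed the filter. Of these 1 was called higher, 33.3% beside 32.7% of all tested genes. With no filter 2 of 8 were called higher, 25% beside 13.7%. Npy4r, Npy5r and Npy6r were at most 0.127 TPM in any mouse, and Npy5r was listed at 0 in all 4 WT mice. Npy2r, a receptor of NPY found on nerve endings, was called higher, at 2.60, 3.63, 2.47 and 2.30 TPM in hSKP2-KI and 1.08, 0.721, 0.822 and 1.39 TPM in WT, with no overlap (log2 fold change 0.90 ± 0.15 SE, adjusted p = 0.00317 by limma, and 0.0173 after median-ratio scaling). Npy1r, the NPY receptor of vessels, was below the filter at 0.866 to 1.03 TPM in hSKP2-KI and 0.232 to 0.553 TPM in WT, again with no overlap. Such a separation was shown by 34% of tested genes and by 6.06% of genes below the filter with a TPM above 0. Vipr1, the most abundant of the receptors, was at 25.8 to 37.2 TPM in hSKP2-KI and 18.0 to 28.4 TPM in WT (0.44, adjusted p = 0.0508 by limma). After median-ratio scaling its log2 fold change was 0.18 (adjusted p = 0.412 by limma). Vipr1 was called without WT replicate 2 (adjusted p = 0.0234 by limma) or without hSKP2-KI replicate 1 (0.0393). It was not called on leaving out any other mouse (0.0522 to 0.132). With all 8 mice, Vipr1 was called with the replicate block (adjusted p = 0.034 by limma). It was also called with a minimum mean of 5 TPM (0.0491). Vipr2 stayed at 0.103 to 0.372 TPM in all mice.

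Of 17 trophic ligands and receptors of nerve, 3 of 11 tested were called higher, 27.3% beside 32.7% of all tested genes. Ret held after median-ratio scaling, while Ntrk3 did not and was lost on leaving out WT replicate 1, 3 or 4 or hSKP2-KI replicate 2 (adjusted p 0.0572 to 0.0764 by limma). Ret, the signalling receptor for the GDNF family, was at 5.49, 2.48, 2.81 and 4.44 TPM in hSKP2-KI and 0.920 to 1.64 TPM in WT (1.04 ± 0.20 SE, adjusted p = 0.00495 by limma). All 4 hSKP2-KI mice were above every WT mouse for Ret, a separation that 34% of all tested genes showed.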

How the data were processed

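Ventral lobes from 4 hSKP2-KI and 4 WT mice were homogenized fresh, poly-T-selected messenger RNA was sequenced as paired ends, and the authors mapped the reads with the CLC workbench. The deposited values are TPM, 1 column per mouse, each summing to 1e+06, for genes with Entrez numbers. The submitters' processing notes name mm10 and GRCm38, and the annotation, strand setting and counting rules are not given in the sources used here, nor is whether human SKP2 reads fell to mouse Skp2. TPM is a share of the library, so a fall of the abundant secretory genes raises all others.

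Groups came from the genotype label. Log2(TPM + 1) was compared with limma 3.58.1 in R 4.3.3 (two-sided, with a mean-variance trend and Benjamini-Hochberg adjustment over all 13080 genes with TPM of at least 1 in at least 4 samples, threshold 0.05). Fold changes on this scale understate low genes. Vip and Npy were below the filter and were compared by a two-sided exact permutation test over 70 assignments in scipy 1.17.1. The limma script was tested on simulated data. Alternatives covered pseudocount, filter, 3 scalings, replicate block, sample weights, robust fitting and leaving out each mouse.

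The 5 genes, the lists and the tests were chosen with earlier results of these data known. Genes were named by rule: the 5, a fixed set of nerve markers, from each of the 10 lists up to 4 called genes with the largest change and the most abundant gene, and the 3 genes most like each of the 5. Snap25, Nefl, Chrna3, Cartpt, Isl1, Tgm4, 9530053A07Rik, Cadm4, Gfra1, Tac1, Grp, Chrnb4, Npy4r, Npy5r, Npy6r and the marker genes of other cells were named after their values were seen. All 181 list genes were found by symbol. Upstream sequences were taken from RefSeq tables of GRCm38.p6, in which Mbp and Sox10 had no entry. Some genes of the lists and of the naming rule are not reported here.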

Additional observations from a re-analysis of the deposited data

Results flagged for a closer look

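A mouse was looked at again when the gap between it and its nearest neighbour took up a larger share of the range of its genotype than Dixon's 95% limit for 4 samples. The gaps, ranges and shares are those of log2(TPM + 1), not of TPM. Over 46 genes, 91 groups could be examined and 11 passed, while chance alone gives about 1 in 20 groups. In 3 of the 11, hSKP2-KI replicate 1 was the highest of its genotype: Vip with a share of 0.893, Tubb3 with 0.831 and Chat with 1, the last because the other 3 mice are listed at 0. Vip in WT gave 1, from a single value of 0.111 TPM in replicate 3 over 3 mice listed at 0. Among the Schwann cell genes, Egr2 was highest in hSKP2-KI replicate 2 (0.915, at 0.770 TPM), Erbb3 lowest in WT replicate 1 (0.893), Gjb1 lowest in hSKP2-KI replicate 4 (0.832) and Chl1 lowest in hSKP2-KI replicate 3 (0.910). The other 3 were Npy1r, highest in hSKP2-KI replicate 4 (0.836), Chga, highest in WT replicate 4 (0.884), and Maoa, highest in WT replicate 4 (0.842).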

How the results depend on the processing

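The counts of calls moved most with the scaling. Genes called numbered 4433 in the TPM as deposited, and 1461 after median-ratio scaling, 1317 after quantile normalization, 1321 after rescaling without the 20 most abundant genes, and 1138 with median-ratio scaling and without hSKP2-KI replicate 1, an alternative added after seeing the data. In the same order the genes called higher numbered 905, 709, 887 and 724 in place of 4272, and those called lower 556, 608, 434 and 414 in place of 161. Nerve-list genes called higher numbered 10, 9, 11 and 7 in place of 25, and those called lower 3, 3, 4 and 2 in place of 1. The S100b log2 fold change was then 0.49, 0.34, 0.64 and 0.38, none past the threshold (adjusted p = 0.0571, 0.167, 0.0508 and 0.11 by limma). Directions that turned were Mbp (-0.018 median-ratio, -0.030 quantile, -0.050 median-ratio without hSKP2-KI replicate 1), Sox10 (-0.021 quantile), Erbb3 (-0.16, -0.15, -0.14 and -0.068 in the order above, and -0.037 without WT replicate 1, with 0.21 without hSKP2-KI replicate 1 as its highest value on leaving out a mouse), Yap1 (-0.15, -0.11, -0.13 and -0.14), Sort1 (-0.10, -0.053, -0.079 and -0.056) and Ngfr (-0.033 quantile and -0.030 for the last alternative), none of them called in the TPM as deposited. The cause of these turns was not tested.

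Leaving out each mouse gave 2993 to 4677 genes called, 2839 to 4548 higher (2839 without WT replicate 1) and 114 to 154 lower, with 19 to 27 nerve-list genes higher and 1 to 2 lower (2 without WT replicate 3). The log2 fold change ranged from 0.12 to 0.31 for Mbp, 0.52 to 0.73 for S100b (adjusted p 0.00973 to 0.0358 by limma), 0.20 to 0.46 for Sox10 (called without hSKP2-KI replicate 3) and 0.27 to 1.45 for Vip. For Npy the difference ranged from 1.07 to 1.80, each with an exact permutation p of 0.0571, the smallest that this test can give with 1 mouse left out, so these say nothing of its stability. With no filter the Npy difference of 1.49 missed the threshold (adjusted p = 0.0504 by limma). A pseudocount of 0.1 gave 1.09 for S100b, 2.71 for Vip and 3.57 for Npy, on the same side of the threshold.

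The labels give no pairing of the mice by replicate number. Deviations of same-numbered mice correlated at 0.221, -0.109, 0.167 and -0.014. Whether same-numbered mice shared a litter or batch was not tested. With the replicate block 5128 genes were called, and 27 nerve-list genes were higher and 2 lower; exact sign changes within numbers gave p = 0.125 for the Npy difference of 1.49, the smallest possible. Of 549 values of 31 other genes under alternatives, 534 kept their direction and 15 turned. A minimum mean of 5 TPM left no test of S100b, Sox10, Vip or Npy, and quality weights, the robust fit and quantile normalization gave no value for Vip and Npy. The reads per library are not in the TPM table, so no counting error is given for values near 0.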
